A study of Mus musculus with 6 samples.

Results

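The nuclear-encoded subunit genes of respiratory complexes II to V were examined in glomeruli of diabetic mice with and without proteinase 3. Members were the genes whose mouse symbol begins with Uqcr, Cox4 to Cox8 or Atp5, or is Sdha, Sdhb, Sdhc or Sdhd, with a mean of at least 1 FPKM (mapped fragments scaled to transcript length and to library size) over the 6 libraries. Of 47 listed genes that matched by symbol, 44 were members, among 12388 genes of the series at that level: 4 of complex II, 8 of complex III, 15 of complex IV and 17 of complex V. Cox7b2 and Cox8b lay under 1 FPKM and Cox8c had no value in any library.

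RNA came from renal glomeruli, the capillary tufts that filter blood, and every mouse was C57BL/6J with diabetic kidney disease. One group of 3 libraries carried a knockout of PR3 (PR3 KO) and the other group of 3 was wild type (WT). Proteinase 3, the product of Prtn3, is known as a protease stored in the granules of neutrophils. All 6 libraries share the strain and the disease state, so no comparison with healthy mice is possible here. The sources used here do not give how diabetes was brought about, the age and sex of the mice or the structure of the knockout allele. Nothing in the labels ties each library to an animal of its own, so p-values cover the spread between these libraries and that spread may be technical.

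Respiratory complexes sit in the inner mitochondrial membrane. Complex II (succinate dehydrogenase) feeds electrons from the citric acid cycle into ubiquinone, complex III passes them to cytochrome c, and complex IV (cytochrome c oxidase) passes them to oxygen. Complexes III and IV pump protons, and complex V (ATP synthase) uses the return of protons to make ATP. The proximal tubule, the segment that follows the glomerulus, is one of the most mitochondria-rich epithelia of the body, whereas podocytes and glomerular endothelium hold fewer mitochondria. The subunits of complexes III, IV and V that are made from mitochondrial DNA were not analysed here. Of the genes with values, 0 matched a symbol of the mitochondrial genome and 52 had no symbol.

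The transcription factors NRF1, GABP (an ETS factor), YY1 and the oestrogen-related receptors are known regulators of respiratory genes, and their core motifs were looked for in the promoters. Promoter windows of 250 bases before to 50 bases after the gene start (RefSeq, GRCm38.p6) were found for 34 of the 44 members. The NRF1 core, GCGC followed by any pair of bases and GCGC again, which reads the same on both strands, lay in the windows of 10 of 34 members (29.4%) and in 6.23% of all 32851 windows of that length. The ETS core CCGGAAG, on either strand, lay in 13 of 34 (38.2%) and in 8.86% of all windows. The YY1 core AAGATGGC lay in 3 members and 2.75% of all windows, and the oestrogen-related receptor site TCAAGGTCA in 2 members and 0.423% of all windows, both on either strand. Genes with a match stood on both sides of the test described below: the NRF1 core was found in 3 of the 13 members with a window that rose and in 7 of the 21 that did not pass, and the ETS core in 6 of 13 and 7 of 21. Matches of different motifs were counted separately and could overlap. A member counted once if any of its windows held the core, whereas the share over all windows counts each window. Below are 120 bases upstream of 2 genes that rose, Cox6a1 and Uqcr11, and of 2 that did not pass, Atp5h and Atp5e, chosen after their values were seen to show that both kinds of gene hold the same cores. Each is written 5′ to 3′ on the gene's own strand, which is the minus strand for all 4, with the NRF1 or ETS core in capitals.
Cox6a1, chr5:115349034-115349153, NRF1 cores: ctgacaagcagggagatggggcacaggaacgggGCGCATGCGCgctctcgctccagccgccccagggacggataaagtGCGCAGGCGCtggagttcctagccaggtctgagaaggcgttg
Uqcr11, chr10:80406852-80406971, ETS core: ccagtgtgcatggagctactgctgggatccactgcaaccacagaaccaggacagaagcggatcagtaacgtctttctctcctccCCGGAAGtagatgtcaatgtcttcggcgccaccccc
Atp5h, chr11:115419996-115420115, NRF1 core: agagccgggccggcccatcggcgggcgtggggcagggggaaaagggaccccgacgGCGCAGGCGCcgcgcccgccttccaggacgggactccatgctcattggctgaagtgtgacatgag
Atp5e, chr2:174464141-174464260, ETS core on the opposite strand: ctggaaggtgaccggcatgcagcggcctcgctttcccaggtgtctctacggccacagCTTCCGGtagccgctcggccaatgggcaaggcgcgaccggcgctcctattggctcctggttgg
A match is a description of these letters and not a measured binding site.

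The targeted gene Prtn3 had 0.14, 0 and 0.07 FPKM in the PR3 KO libraries, below the 0.46, 0.21 and 0.22 FPKM of the WT libraries, which is too few fragments for more than a weak check of the labels. The files hold no counts, and the commonest value above 0 of short olfactory receptor genes, read as 1 fragment, put the depth near 13300000 to 15200000 fragments per library, within the coarse rounding of FPKM to 2 decimals. WT 2 stood apart, with Spearman correlations of 0.967 and 0.973 to the other WT libraries against 0.988 between those. Over the 12388 tested genes the median log2 fold change was -0.26, and it was 0.03 once levels had been scaled by median of ratios, which sets the libraries to a common median gene. Podocyte markers were present, with all 15 tested, but 25 proximal tubule markers summed to more than the podocyte markers in every library. This tubule list summed to 55751 to 72849 FPKM in PR3 KO and 10432 to 27824 FPKM in WT. Most of that was Kap, an androgen-regulated transcript of the proximal tubule, at 40546 to 57590 FPKM in PR3 KO and 5248 to 18509 FPKM in WT. Without Kap the other 24 markers summed to 13631 to 15259 FPKM in PR3 KO and 5185 to 9315 FPKM in WT. Of the 25 markers 20 rose and 0 fell (limma), with a median log2 fold change of 0.82. The 15 podocyte markers summed to 439 to 691 FPKM in PR3 KO and 776 to 1284 FPKM in WT, and the 15 glomerular endothelial markers to 1438 to 2073 and 3631 to 4474 FPKM. All 12 macrophage markers fell (limma), with sums of 99.3 to 152.5 FPKM in PR3 KO and 667 to 1408 FPKM in WT. Not all tubule markers rose: 15 markers of the loop, distal tubule and collecting duct summed to 830 to 1261 FPKM in PR3 KO and 1316 to 1673 FPKM in WT. Of these 7 fell and 0 rose (limma), with a median log2 fold change of -0.53, against 41.1% and 11.7% of all tested genes. The count that fell is near that share. After scaling 2 fell and 0 rose, with a median of -0.23, against 22.3% and 25.4% of all tested genes. Of the 25 proximal tubule markers 22 rose and 0 fell after scaling. None of the markers in these lists was listed at 0 in all libraries. In bulk tissue a change in the number of cells of a type cannot be told apart from a change of RNA per cell.

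Subunit genes of all 4 complexes were on the whole higher in PR3 KO. Of the 44 members 17 rose and 0 fell (limma on log2(FPKM + 1), Benjamini-Hochberg adjusted p under 0.05 over all tested genes), while 11.7% of all tested genes rose and 41.1% fell. Most members are abundant transcripts: at a mean of 100 FPKM or more 32.0% of 873 genes rose and 18.8% fell, against 16 and 0 of the 40 members at that level. The median log2 fold change of the members was 0.39 (range -0.68 to 0.81), that of the genes at 100 FPKM or more 0.21. After median-of-ratios scaling 27 members rose and 0 fell, with a median of 0.72, against 25.4% and 22.3% of all tested genes. At 100 FPKM or more, 25 of 40 members then rose and 0 fell, against 49.0% and 9.28% of the 873 genes, and the medians were 0.71 and 0.54. All 3 PR3 KO libraries lay above all 3 WT libraries in 27 members and below them in 1, Cox7a2l, against 16.0% and 49.1% of all tested genes. At 100 FPKM or more these were 25 and 1 of 40 members, against 43.9% and 24.2% of the 873 genes. Leaving out PR3 KO 1 left 6 members past the threshold and leaving out PR3 KO 3 left 10, while without WT 2 there were 17, with a median of 0.22.

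**Figure D1:**
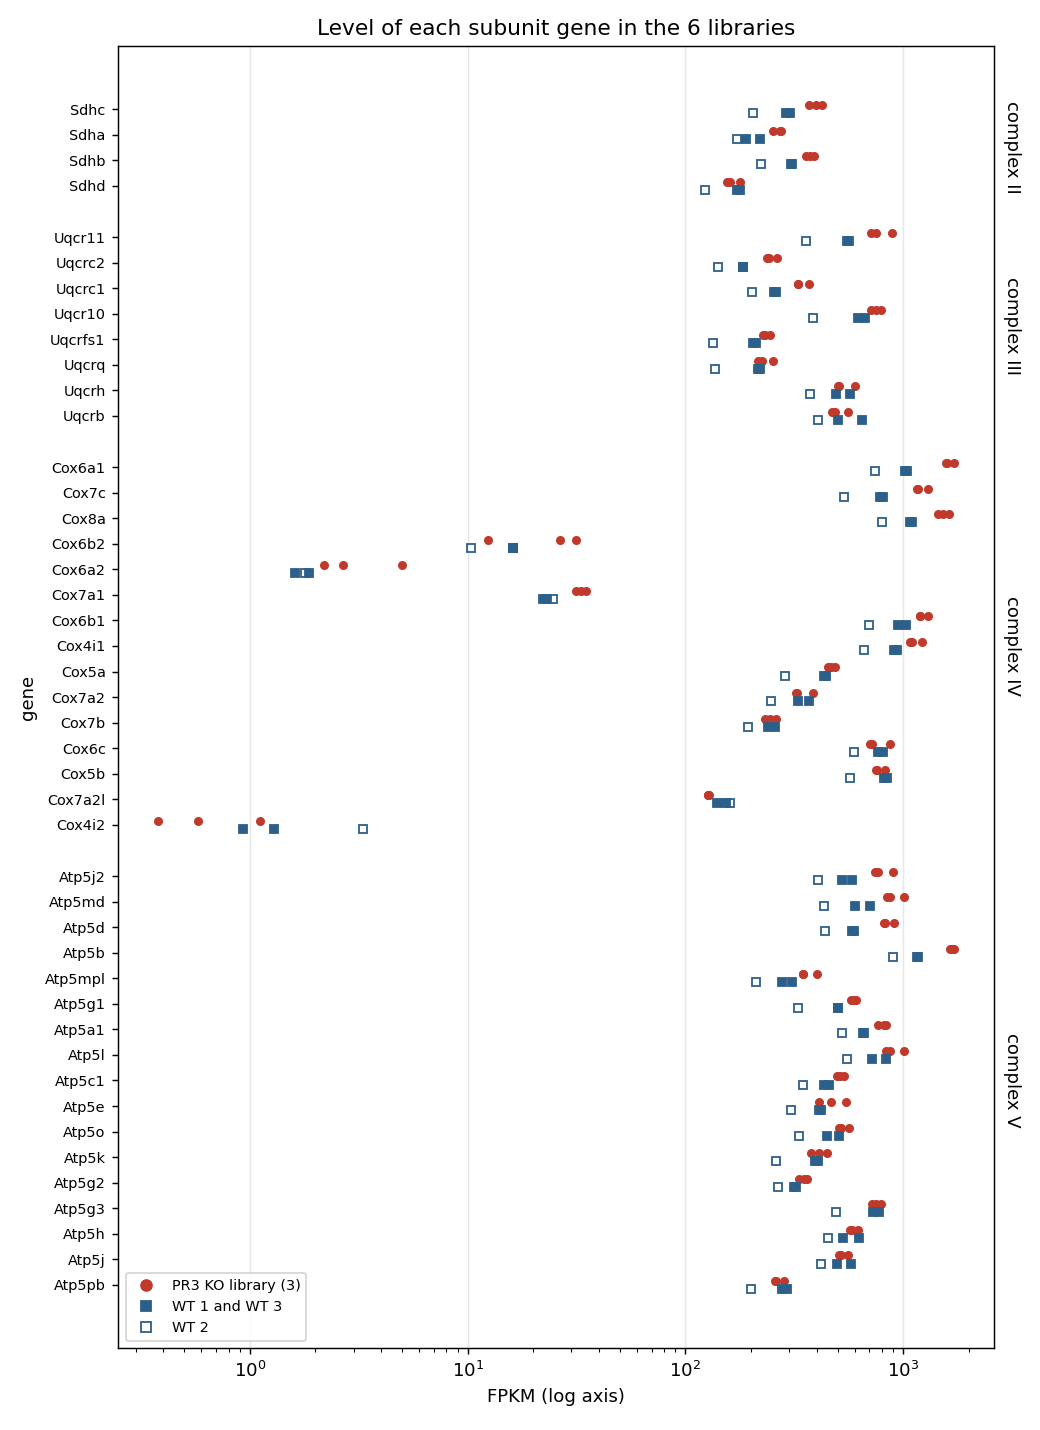
FPKM of each of the 44 members (log axis) in the 3 PR3 KO libraries (circles), WT 1 and WT 3 (filled squares) and WT 2 (open squares), by complex. WT 2 is the lowest of the 6 libraries in 40 members, and the isoform genes Cox4i2, Cox6a2, Cox6b2 and Cox7a1 lie far below the others.

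Summed over the 44 members, levels were 27397, 24775 and 24807 FPKM in PR3 KO 1, 2 and 3 and 20661, 15246 and 21755 FPKM in WT 1, 2 and 3, a ratio of means of 1.34. The groups did not overlap, and WT 2 was far below the other WT libraries. WT 2 was the lowest library for 40 of 44 members, against 20.1% of all tested genes and 58.5% of those at 100 FPKM or more. It was also the library with the lowest proximal tubule sum without Kap, 5185 FPKM against 9315 and 7867 in WT 1 and WT 3, and the highest podocyte sum, 1284 against 776 and 872. PR3 KO 1 was the highest library for 30 of the 44 members and for 339 of the 873 genes at 100 FPKM or more. The proximal tubule sum without Kap was 15259, 13631 and 15205 FPKM in PR3 KO 1, 2 and 3. The mean log2 level of the 25 markers was 8.43, 8.38 and 8.47 in these libraries. With Kap the sum was 72849, 63513 and 55751 FPKM, so the order of these libraries depended on the measure. With the mean log2 level of the proximal tubule markers as a covariate, 0 of 44 members and 0 of 12388 genes passed (limma; 1 member had an unadjusted p under 0.05), and the median of the members was -0.21 beside -0.15 for all tested genes. That score does not overlap between the genotypes, so genotype and marker level cannot be told apart in this design.

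**Figure D2:**
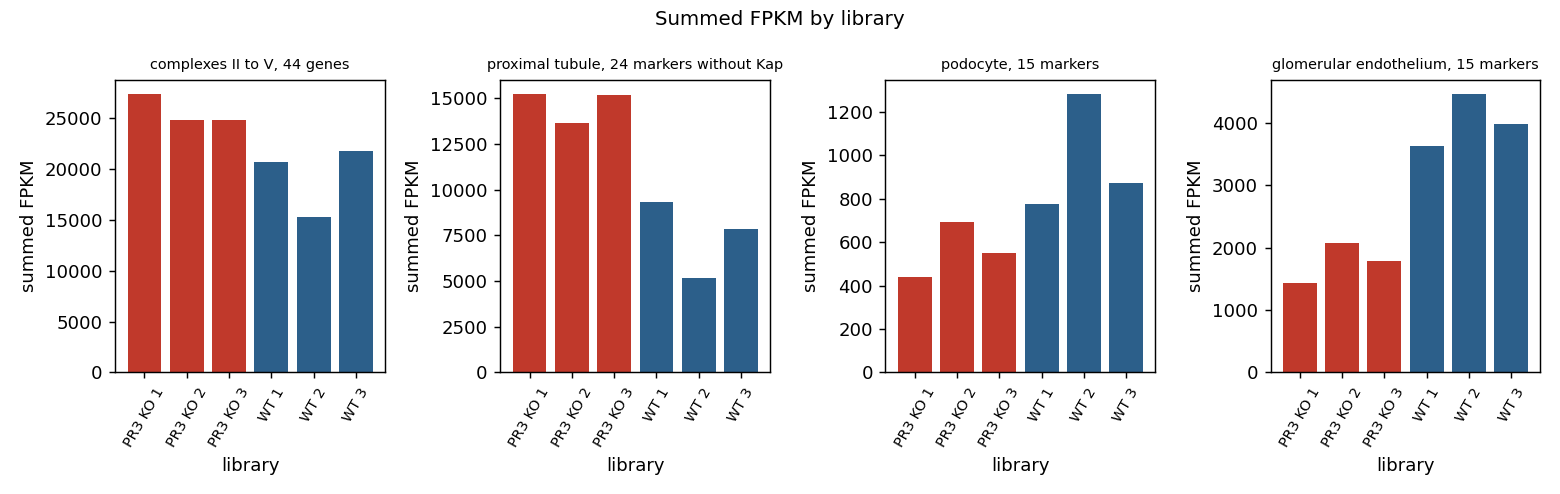
Summed FPKM in each library of the 44 subunit genes, 24 proximal tubule markers (Kap left out), 15 podocyte markers and 15 glomerular endothelial markers (bars from 0; PR3 KO red, WT blue). Subunit and proximal tubule sums are lowest in WT 2, where podocyte and endothelial sums are highest. Among the PR3 KO libraries the subunit sum is highest in PR3 KO 1. PR3 KO 1 and PR3 KO 3 have nearly equal proximal tubule sums without Kap, while with Kap that of PR3 KO 1 is the highest.

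Complex II holds the flavoprotein Sdha and the iron-sulfur protein Sdhb, which face the matrix, and the membrane anchors Sdhc and Sdhd. Of these 4 genes 3 rose, with a median of 0.45, against 32.0% of all genes at 100 FPKM or more and their median of 0.21. Sdhc (Entrez 66052, chromosome 1, 171129157 to 171150640, GRCm38.p6) was at 421.74, 368.65 and 397.36 FPKM in PR3 KO 1, 2 and 3, against 290.52, 205.13 and 302.33 FPKM in WT 1, 2 and 3. The groups did not overlap, and the log2 fold change was 0.59 (SE 0.17, limma adjusted p = 0.0215). Sdhb was at 389.22, 357.72 and 371.99 FPKM in PR3 KO and 305.53, 222.55 and 308.74 FPKM in WT (0.43, SE 0.16, limma adjusted p = 0.0480). Sdha was at 272.28, 252.24 and 273.78 FPKM in PR3 KO and 219.17, 172.58 and 190.78 FPKM in WT (0.46, SE 0.13, limma adjusted p = 0.0195). In both genes each PR3 KO library exceeded each WT library. Sdhd, the partner of Sdhc in the membrane, was at 160.69, 155.55 and 178.60 FPKM in PR3 KO and 171.96, 123.28 and 177.75 FPKM in WT, and the groups overlapped (0.08, SE 0.16, limma adjusted p = 0.688). Without PR3 KO 1 the calls of Sdhc, Sdha and Sdhb were lost (limma adjusted p = 0.0748, 0.0674 and 0.135), as they were without PR3 KO 3 (0.0654, 0.0732 and 0.118), and that of Sdhb also without PR3 KO 2 (0.0918).

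Complex III is built around the core proteins Uqcrc1 and Uqcrc2, the Rieske iron-sulfur protein Uqcrfs1 and small accessory subunits. Of its 8 members 3 rose, with a median of 0.43, a count near the 32.0% of all genes at 100 FPKM or more that rose. The small subunit gene Uqcr11 (Entrez 66594, chromosome 10, 80402997 to 80406821) was at 884.79, 751.91 and 714.34 FPKM in PR3 KO and 563.41, 359.62 and 552.72 FPKM in WT (0.69, SE 0.20, limma adjusted p = 0.0215). The groups did not overlap. Uqcrc2 was at 264.27, 237.61 and 242.26 FPKM in PR3 KO and 184.26, 141.13 and 183.32 FPKM in WT (0.56, SE 0.14, limma adjusted p = 0.0130). Uqcrc1 was at 370.69, 328.57 and 327.45 FPKM in PR3 KO and 261.98, 203.18 and 255.47 FPKM in WT (0.52, SE 0.14, limma adjusted p = 0.0176). Both core genes were higher in each PR3 KO library than in any WT library. Without PR3 KO 1 the calls of Uqcr11, Uqcrc2 and Uqcrc1 were lost (adjusted p from limma of 0.0796, 0.0524 and 0.0703). Uqcr10, another small subunit gene, was at 789.09, 710.60 and 749.66 FPKM in PR3 KO and 619.30, 383.61 and 667.47 FPKM in WT and did not pass (0.47, limma adjusted p = 0.0990), although the groups did not overlap. Uqcrfs1 was at 0.38 (limma adjusted p = 0.109), and both it and Uqcr10 passed after scaling (limma adjusted p = 0.0341 and 0.0401). The other small subunits Uqcrq, Uqcrh and Uqcrb were at 0.30, 0.18 and -0.01 and overlapped between the genotypes, and Uqcrb was at 0.32 after scaling.

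Complex IV takes its catalytic core from mitochondrial DNA and is surrounded by nuclear subunits, several of which exist as ubiquitous and tissue-restricted isoforms. Of 15 members 5 rose, with a median of 0.46: Cox6a1, Cox7c, Cox8a, Cox6b1 and Cox7a1. That count is near the 32.0% of all genes at 100 FPKM or more that rose, while 11.7% of all tested genes did. Cox6a1 (Entrez 12861, chromosome 5, 115345652 to 115348958) had the largest log2 fold change of all members. It was at 1713.40, 1595.80 and 1563.64 FPKM in PR3 KO and 1044.84, 742.11 and 1022.19 FPKM in WT (0.81, SE 0.17, limma adjusted p = 0.00624). The lowest PR3 KO library exceeded the highest WT library by a wide margin. Cox7c (Entrez 12867, chromosome 13, 86044798 to 86046795) was at 1303.43, 1163.49 and 1151.72 FPKM in PR3 KO and 781.20, 535.18 and 809.38 FPKM in WT (0.79, SE 0.19, limma adjusted p = 0.00972). Cox8a was at 1621.58, 1530.66 and 1445.25 FPKM in PR3 KO and 1069.31, 795.80 and 1096.49 FPKM in WT (0.65, SE 0.17, limma adjusted p = 0.0137, and 0.0559 without PR3 KO 1). Neither gene overlapped between the genotypes.

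The other ubiquitous subunits of complex IV moved less. Cox6b1, on the outer face of the complex, was at 1296.92, 1193.21 and 1194.42 FPKM in PR3 KO and 946.75, 698.80 and 1028.62 FPKM in WT (0.48, SE 0.17, limma adjusted p = 0.0484). Its call was lost when any PR3 KO library or WT 1 was left out (limma adjusted p = 0.143, 0.103 and 0.111 without PR3 KO 1, 2 and 3, and 0.0668 without WT 1). Cox4i1, the largest nuclear subunit, was at 1220.11, 1100.65 and 1079.11 FPKM in PR3 KO and 934.00, 659.09 and 904.99 FPKM in WT. It narrowly missed the threshold (0.46, SE 0.17, limma adjusted p = 0.0531) and passed after scaling (limma adjusted p = 0.0232). With WT 1 or with WT 2 left out it passed too, at 0.55 and 0.30 (0.0493 and 0.046 in limma), as it did with no intensity trend (0.0358). Cox7a2, the ubiquitous form of subunit VIIa, was at 386.89, 325.89 and 321.74 FPKM in PR3 KO and 327.27, 247.38 and 368.94 FPKM in WT, with overlapping groups (0.15, limma adjusted p = 0.494). Cox5a, Cox7b, Cox6c and Cox5b were at 0.30, 0.10, 0.09 and 0.08 and did not pass. Cox7a2l, which joins complex III to complex IV in supercomplexes, was at 127.53, 127.39 and 127.83 FPKM in PR3 KO and 139.68, 160.64 and 153.97 FPKM in WT. It was the 1 member whose PR3 KO libraries all lay below the WT libraries, but it did not pass (-0.24, SE 0.11, limma adjusted p = 0.0921) and was at 0.09 after scaling.

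The tissue-restricted isoforms stood far below their ubiquitous counterparts in FPKM, a scale set per transcript length. Cox7a1, the heart and muscle form of subunit VIIa, was at 33.33, 31.47 and 34.86 FPKM in PR3 KO and 23.11, 24.79 and 22.12 FPKM in WT (0.49, SE 0.09, limma adjusted p = 0.00377). The groups did not overlap, and WT 2 was not low for this gene. Cox6a2, the heart and muscle form of VIa, was at 2.20, 2.69 and 4.98 FPKM in PR3 KO and 1.62, 1.79 and 1.88 FPKM in WT (0.58, SE 0.22, limma adjusted p = 0.0568). It passed without PR3 KO 1 (0.77, limma adjusted p = 0.031) and after scaling (limma adjusted p = 0.0198). Cox6b2, known from testis, was at 31.37, 12.43 and 26.59 FPKM in PR3 KO and 16.09, 10.42 and 16.19 FPKM in WT. The groups overlapped through PR3 KO 2, and with 1 library left out the gene passed only without that one (0.997, limma adjusted p = 0.00832), against 0.156 over all 6 libraries. Cox4i2, the form of subunit IV known from lung and from oxygen-sensing vascular cells, was at 1.11, 0.58 and 0.38 FPKM in PR3 KO and 0.93, 3.32 and 1.29 FPKM in WT (-0.68, SE 0.31, limma adjusted p = 0.0929). WT 2 was the highest library, the reverse of most members, and without WT 1 the gene passed as lower (-0.92, limma adjusted p = 0.0407). Cox4i2 and Cox6a2, at means of 1.27 and 2.53 FPKM, were the members nearest to the limit of 1 FPKM, and at 1 FPKM a gene rests on few fragments. No member lay between 1 FPKM and Cox4i2, and the next genes were far below the limit at means of 0.09 and 0.07 FPKM: Cox7b2 was at 0 to 0.14 FPKM, and Cox8b was listed at 0 in all PR3 KO libraries and in WT 3 and at 0.22 and 0.21 FPKM in WT 1 and 2.

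In complex V, 6 of 17 members rose, with a median of 0.33. All 17 were above 0, as were 552 of the 873 genes at 100 FPKM or more. The count that rose is near the 32.0% of all genes at 100 FPKM or more. The F1 head makes ATP with the alpha and beta subunits Atp5a1 and Atp5b, driven by the central stalk of Atp5c1, Atp5d and Atp5e, and 3 of these 5 genes rose. Atp5b (Entrez 11947, chromosome 10, 128083307 to 128090388), the most abundant member, was at 1681.11, 1642.04 and 1718.26 FPKM in PR3 KO and 1172.27, 898.14 and 1151.95 FPKM in WT (0.66, SE 0.15, limma adjusted p = 0.00961). Atp5d (Entrez 66043) was at 905.04, 816.92 and 821.93 FPKM in PR3 KO and 581.38, 435.77 and 593.88 FPKM in WT (0.67, SE 0.16, limma adjusted p = 0.0100). Both genes separated the genotypes fully. Atp5a1 rose by a smaller amount (0.41, SE 0.14, limma adjusted p = 0.0438), and its call was lost when any 1 library other than WT 2 was left out (limma adjusted p from 0.0509 to 0.139). Atp5c1 and Atp5e were at 0.33 and 0.32 and passed only after scaling.

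Of the 5 small membrane subunits 3 rose, beside 32.0% of all genes at 100 FPKM or more. Atp5j2, subunit f, was at 897.87, 768.83 and 740.28 FPKM in PR3 KO and 523.26, 405.97 and 583.12 FPKM in WT (0.68, SE 0.17, limma adjusted p = 0.0126, and 0.053 without PR3 KO 1). Atp5md, known for its part in ATP synthase dimers, was at 1008.52, 846.23 and 868.07 FPKM in PR3 KO and 601.99, 433.38 and 700.55 FPKM in WT (0.67, SE 0.20, limma adjusted p = 0.0218). Its call was lost without PR3 KO 1 or PR3 KO 3 (limma adjusted p = 0.0802 and 0.0562). Neither gene overlapped between the genotypes. Atp5mpl was at 0.47 (limma adjusted p = 0.0449) and lost its call without any 1 library other than WT 3 (limma adjusted p from 0.0506 to 0.144). Atp5l, subunit g, was at 1008.70, 866.07 and 835.20 FPKM in PR3 KO and 717.92, 553.66 and 830.73 FPKM in WT and did not pass (0.38, SE 0.18, limma adjusted p = 0.108), except after scaling (0.0378). Its groups were separated only narrowly, between WT 3 and PR3 KO 3.

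None of the 4 genes of the peripheral stalk, the stator that holds the F1 head still, passed the test. Of all genes at 100 FPKM or more 32.0% rose and 18.8% fell. Atp5o, Atp5h, Atp5j and Atp5pb were at log2 fold changes of 0.32, 0.16, 0.09 and 0.07, and Atp5o alone passed after scaling (limma adjusted p = 0.0431). Atp5j overlaps the gene of the ETS factor subunit Gabpa, and the use of strand in the counting is not given in the sources used here, so reads of these genes may be mixed. In all, 16 members overlap another annotated gene.

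**Figure D3:**
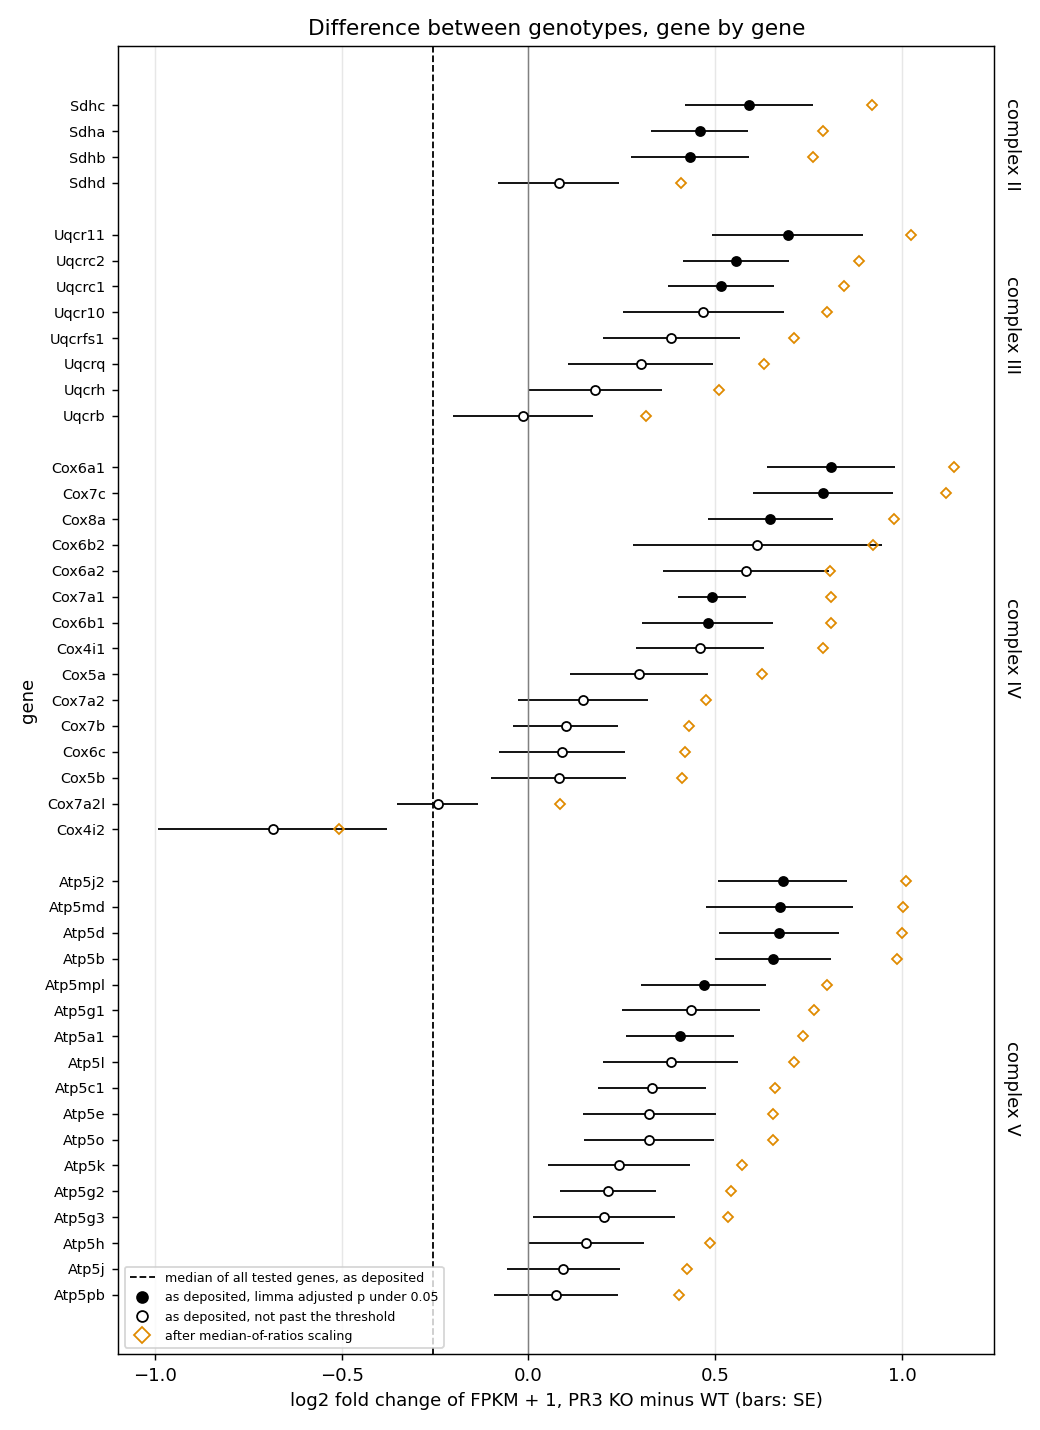
Log2 fold change of FPKM + 1, PR3 KO minus WT, with SE, for each member as deposited (filled circles, limma adjusted p under 0.05; open circles, not past the threshold) and after median-of-ratios scaling (diamonds). Of the 44 members 41 lie above 0 as deposited and 43 after scaling, and the dashed line marks the median of all tested genes at -0.26. As deposited 552 of 873 genes at 100 FPKM or more and 3756 of 12388 tested genes were above 0.

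The c-ring of complex V is encoded by 3 genes, Atp5g1, Atp5g2 and Atp5g3, which give the same mature protein behind different mitochondrial targeting sequences. Atp5g1 was at 595.01, 575.16 and 604.87 FPKM in PR3 KO and 502.50, 329.96 and 503.79 FPKM in WT (0.44, limma adjusted p = 0.0785). Atp5g2 was at 362.10, 333.48 and 349.04 FPKM in PR3 KO and 315.98, 264.93 and 322.85 FPKM in WT (0.21, limma adjusted p = 0.193). Neither passed, although their groups did not overlap, and both passed after scaling (limma adjusted p = 0.0289 and 0.0337). Atp5g3, the most abundant of them, was at 791.03, 716.22 and 746.22 FPKM in PR3 KO and 728.64, 492.15 and 772.93 FPKM in WT and overlapped (0.20, limma adjusted p = 0.387).

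A share of summed FPKM within a library does not move with library scaling, so isoform use was compared on that measure. The Atp5g1 share of the 3 c-ring genes was 34.0%, 35.4% and 35.6% in PR3 KO and 32.5%, 30.4% and 31.5% in WT (35.0% ± 0.84 against 31.4% ± 1.06, SD, n = 3 per genotype, permutation p = 0.1, exact and two-sided). The Atp5g3 share was 44.4% ± 0.74 in PR3 KO and 46.9% ± 1.53 in WT (SD, n = 3 per genotype, permutation p = 0.1, exact and two-sided). The shares of both genes did not overlap between genotypes. With 3 against 3 libraries 0.1 is the smallest p possible, and over the 8 shares compared the smallest adjusted value was 0.267. The Cox4i2 share of Cox4i1 plus Cox4i2 was 0.091%, 0.053% and 0.035% in PR3 KO and 0.099%, 0.501% and 0.142% in WT, higher in WT 2 than elsewhere (permutation p = 0.1, exact and two-sided). The Cox7a1 share of subunit VIIa, 8.84% ± 0.92 against 7.12% ± 1.79, overlapped (permutation p = 0.3, exact and two-sided), as did those of Cox6a2, Cox6b2, Cox8b and Atp5g2.

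The same measure was taken over whole complexes, to ask whether the genes of 1 complex moved in proportion. In 28 of the 44 members (63.6%) the share of the complex's summed FPKM did not overlap between genotypes, 10 higher and 18 lower in PR3 KO. Levels, which are another measure than shares, did not overlap in 65.1% of all tested genes as deposited and in 62.0% after median-of-ratios scaling. For the scaled genes at 100 FPKM or more it was 76.4%. The 63.6% lies near or below these values, but shares within other gene sets were not computed, so it has no background of its own kind. In complex II the Sdhc share was 33.9%, 32.5% and 32.5% in PR3 KO and 29.4%, 28.4% and 30.9% in WT, while the Sdhd share was 12.9%, 13.7% and 14.6% against 17.4%, 17.0% and 18.1%. In complex III the Uqcrb share was 14.1%, 13.6% and 14.0% in PR3 KO and 16.5%, 18.9% and 19.5% in WT, and that of Uqcr11 was higher. These sums cover the members only and leave out Cyc1 and the subunits made from mitochondrial DNA, and with non-overlap this common among all genes the single shares are given as values.

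In complex IV the shares of Cox6a1, Cox7c and Cox8a were higher, and those of Cox5b, Cox6c, Cox7b, Cox7a2, Cox5a, Cox7a2l and Cox4i2 lower. The Cox5b share was 8.10%, 8.18% and 8.23% in PR3 KO and 10.9%, 10.3% and 10.9% in WT, and the Cox6a1 share 16.8%, 17.2% and 17.2% against 13.8%, 13.4% and 13.1%. In complex V the share of the peripheral stalk gene Atp5pb was 2.35%, 2.36% and 2.36% in PR3 KO and 3.05%, 2.91% and 3.04% in WT. The spread within a genotype was small beside the difference in these 3 genes. All 4 peripheral stalk genes had a lower share in PR3 KO, as did Atp5c1 of the central stalk, Atp5g2 and Atp5g3 of the c-ring and Atp5k. Atp5b, Atp5d, Atp5j2 and Atp5md had a higher one. WT 2, low in nearly all levels, was the WT library farthest from PR3 KO in 12 of the 28 shares, the nearest in 10 and in the middle in 6.

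**Figure D4:**
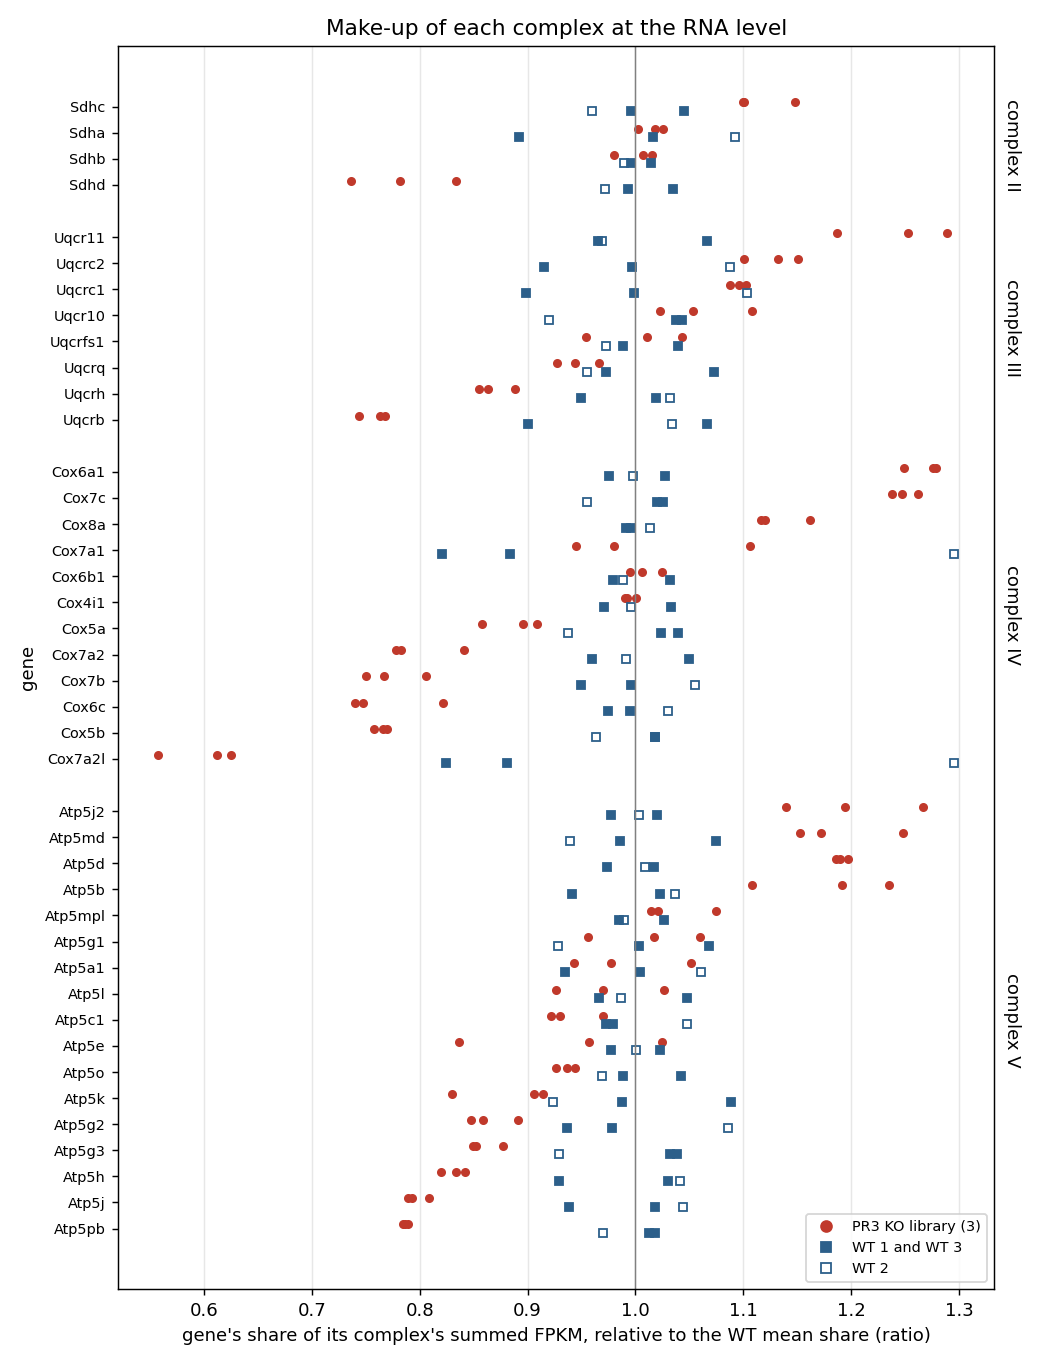
Share of each gene in the summed FPKM of its complex in each library, divided by the mean WT share (1 is the WT mean), for PR3 KO (circles), WT 1 and WT 3 (filled squares) and WT 2 (open squares); Cox4i2, Cox6a2 and Cox6b2 are left out. Shares of Cox6a1, Cox7c, Uqcr11 and Atp5d lie to the right and those of Sdhd, Uqcrb, Cox5b and Atp5pb to the left in all 3 PR3 KO libraries.

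Other genes of the pathway were read from lists set beside the members. Of 38 tested complex I genes, taken by symbol and including Ndufa4, now known as a subunit of complex IV, 14 rose and 0 fell, with a median of 0.29, and 22 rose and 0 fell after scaling, with a median of 0.62. Ndufa9, an accessory subunit of complex I, was at 184.44, 166.50 and 164.52 FPKM in PR3 KO and 124.86, 99.71 and 122.26 FPKM in WT (0.57, limma adjusted p = 0.00814), and Ndufa10 was at 0.63 (limma adjusted p = 0.00834). Of 13 citric acid cycle enzymes 8 rose and 0 fell, with a median of 0.46, and 10 rose and 0 fell after scaling, with a median of 0.79. Idh3g, a subunit of isocitrate dehydrogenase, was at 290.21, 273.60 and 286.25 FPKM in PR3 KO and 180.10, 151.33 and 184.61 FPKM in WT (0.72, SE 0.12, limma adjusted p = 0.00276), and malate dehydrogenase Mdh2 was at 0.60 (limma adjusted p = 0.0126). These enzymes and the complex I genes had medians on the same side of 0 as the members, as did all genes at 100 FPKM or more. At that level 32.0% rose and 18.8% fell as deposited, and 49.0% and 9.28% after scaling. Over all tested genes 11.7% rose and 41.1% fell as deposited, and 25.4% and 22.3% after scaling. The complex I counts that rose lay near the shares at 100 FPKM or more. Those of the citric acid cycle enzymes lay above these shares, although not all 13 reach that level. Cyc1, the cytochrome c1 of complex III that the symbol rule does not take, and cytochrome c, Cycs, were at 0.41 and 0.23 and did not pass (limma adjusted p = 0.0732 and 0.385).

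Assembly factors build the complexes without staying in them, and their counts depended on the scaling. Of all tested genes 11.7% rose and 41.1% fell as deposited, and 25.4% and 22.3% after scaling. At 100 FPKM or more 32.0% rose as deposited and 49.0% after scaling. Of 24 tested factors of complex IV 3 rose and 1 fell as deposited, with a median of 0.11, and 12 rose and 0 fell after scaling, with a median of 0.39. The rising genes were Cox19, Fastk, a mitochondrial RNA-binding protein listed with them, and the heme A synthase Cox15 (0.47, 0.37 and 0.31, limma adjusted p = 0.00884, 0.0184 and 0.0197), and the falling gene, Cox11, a copper chaperone, was at -0.33 (limma adjusted p = 0.0406) and at -0.05 after scaling. Of 4 factors of complex II 1 rose (2 after scaling), Sdhaf1 (0.48, limma adjusted p = 0.0453), with Sdhaf2 at -0.20 (limma adjusted p = 0.103) and at 0.11 after scaling, and of 6 of complex III 2 rose (3 after scaling), Bcs1l and Uqcc1 (0.35 and 0.31, limma adjusted p = 0.0138 and 0.0306). Of 7 genes listed for complex V 2 rose as deposited and 5 after scaling. That list took in Dmac2, which is known as an assembly factor of complex I. Atpif1, the natural inhibitor of ATP synthase, was at 362.82, 309.76 and 309.25 FPKM in PR3 KO and 234.40, 191.93 and 257.38 FPKM in WT (0.53, SE 0.15, limma adjusted p = 0.0196), and Dmac2 was at 0.39 (limma adjusted p = 0.0177). Of 14 carriers, pores and import genes 6 rose after scaling, with a median of 0.49, and 1 as deposited, with a median of 0.16, the outer membrane channel Vdac1 (0.54, limma adjusted p = 0.0423), with Vdac3 at -0.29 (limma adjusted p = 0.0586) and at 0.04 after scaling.

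For the regulators of respiratory genes the direction of the calls turned with the scaling. As deposited 4 of 15 tested genes fell and 0 rose, against 41.1% and 11.7% of all tested genes. With scaling 1 fell and 4 rose, against 22.3% and 25.4% of all tested genes. The median of the 15 was -0.09 as deposited and 0.14 after scaling. Falls were thus no more common among the regulators than over all tested genes. Yy1 was at 15.43, 16.03 and 16.41 FPKM in PR3 KO and 23.50, 23.76 and 21.62 FPKM in WT (-0.50, SE 0.09, limma adjusted p = 0.00285), and Gabpb1, a subunit of GABP, was at -0.52 (limma adjusted p = 0.00289). Gabpa and Nrf1 were at -0.62 and -0.54 (limma adjusted p = 0.00324 and 0.0123). After scaling Gabpa alone of these 4 remained past the threshold (-0.33, limma adjusted p = 0.0254), with Yy1, Gabpb1 and Nrf1 at -0.18, -0.23 and -0.25. The coactivator Ppargc1a and the mitochondrial transcription factor Tfam, named after their values were seen, were at -0.16 and 0.07 (limma adjusted p = 0.252 and 0.645), and at 0.14 and 0.37 after scaling.

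**Figure D5:**
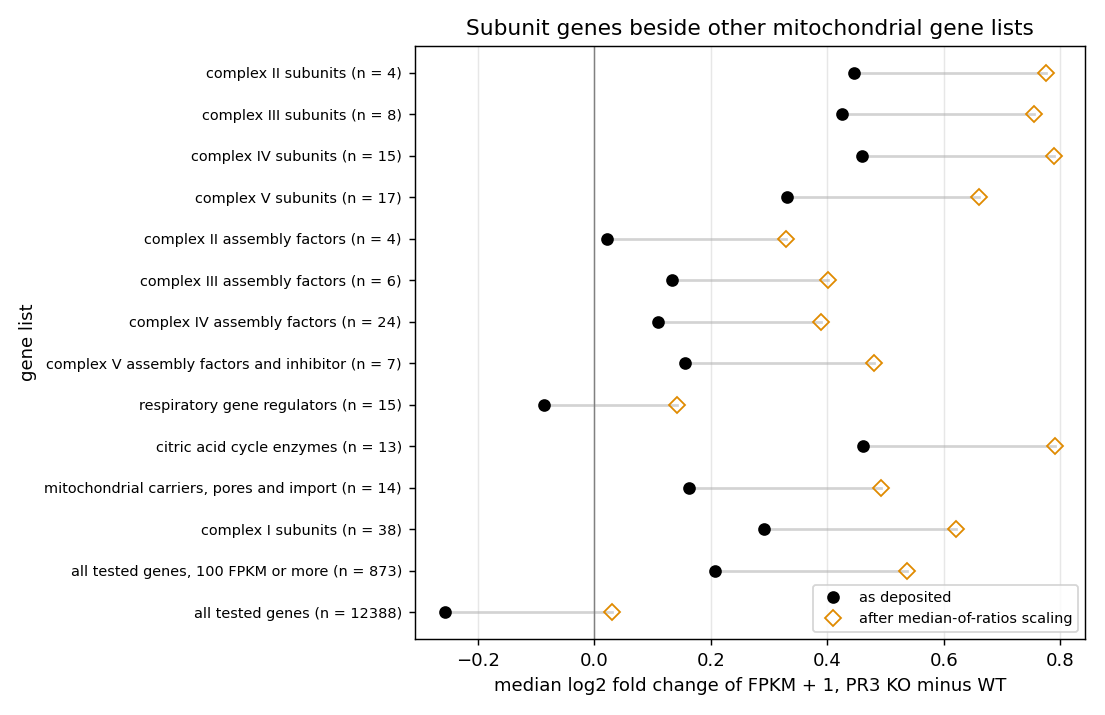
Median log2 fold change of FPKM + 1, PR3 KO minus WT, of the members by complex, of other mitochondrial gene lists and of all tested genes, as deposited (circles) and scaled by median of ratios (diamonds); n is the number of tested genes. Complexes II to V lie at 0.33 to 0.46 as deposited, beside 0.46 for citric acid cycle enzymes, 0.29 for complex I and 0.21 for all genes at 100 FPKM or more.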

How the data were processed

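Trizol RNA was enriched for polyadenylated transcripts with oligo(dT) beads and read on a DNBSEQ sequencer, per the labels' protocols. Per the submitters' processing notes Bowtie2 and the build GRCm38.p6 were used; the sources used here do not give the aligner's version, the counting tool, the annotation, strand or filters. The deposited values are FPKM, per the file headers, scaled by the authors to transcript length and mapped fragments and rounded to 2 decimals. When abundant transcripts take more fragments, the FPKM of all others falls, so shares within a library and median-of-ratios scaling are given too. Each file listed 22064 Entrez IDs, of which 18822 had values and 18770 matched a symbol in the RefSeq table.

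Every gene averaging 1 FPKM or more was tested with limma 3.58.1 and statmod 1.5.0 (R 4.3.3) on log2(FPKM + 1), which understates the change of low genes, with genotype as the only term, an intensity trend and robust moderation. P-values were Benjamini-Hochberg adjusted over all tested genes, and SE is the moderated one. The fit was tested on simulated data. Python 3.11.15, pandas 2.3.3, scipy 1.17.1 and matplotlib 3.10.9 were used. Members and lists were chosen with earlier results of these data known. Genes given with all values were, per complex, the 2 most abundant, up to 3 with the largest change past the threshold, the isoform sets and the genes nearest to the limit, plus the 2 genes with the smallest adjusted p per list. Sdhd, Cox7a2l, Cox15, Gabpa, Nrf1 and other genes outside that rule were chosen after their values were seen. Alternatives were another scaling, pseudocount or filter, no trend, the replicate block, a proximal tubule covariate and each library left out. Leaving out WT 2 and PR3 KO 3 together was added after seeing the data.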

Additional observations from a re-analysis of the deposited data

How the results depend on the processing

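Counts of members that rose were 17 in all, and 3, 3, 5 and 6 of complexes II, III, IV and V. The total went to 6 with PR3 KO 1 left out and to 27 with scaling. With the proximal tubule markers in the model it went to 0, but so did the count over all 12388 tested genes. With median-of-ratios scaling 27 rose in all, 5 of complex III and 12 of complex V. With 1 library left out in turn the count ranged from 6 to 17 in all, from 0 to 3 in complex II, 0 to 3 in complex III, 4 to 6 in complex IV and 2 to 5 in complex V. The lowest counts came without PR3 KO 1 (6 in all) and PR3 KO 3 (10 in all). Members that fell numbered 0 to 1 in all and 0 to 1 in complex IV, the 1 being Cox4i2 without WT 1. With WT 2 and PR3 KO 3 left out together, 12 rose, 1 of them in complex II. With the proximal tubule markers' mean in the model 0 rose in each complex. That score does not overlap between the genotypes and 0 of 12388 genes passed, so the fit cannot single out the members. In it 8 of the 17 genes had estimates below 0, each smaller in size than its SE. They were Sdha (-0.0108, SE 0.25), Sdhb (-0.21, SE 0.28), Sdhc (-0.13, SE 0.30), Uqcr11 (-0.20, SE 0.34), Cox6b1 (-0.15, SE 0.33), Atp5a1 (-0.0653, SE 0.28), Atp5md (-0.0291, SE 0.38) and Atp5mpl (-0.11, SE 0.33). Over the other 13 alternatives, 5 of the 17 genes passed each time: Atp5b, Atp5d, Cox6a1, Cox7a1 and Cox7c. No filter left 13, without Sdhb, Cox6b1, Atp5a1 and Atp5mpl, and a pseudocount of 0.1 left 17.

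The replicate numbers did not pair the libraries: correlations of deviations between same-numbered libraries were 0.07, 0.27 and -0.09, and not every library correlated best with its own number. With the replicate block 17 members rose, 2 calls being lost (Atp5a1 and Cox6b1) and 2 gained (Cox6a2 and Cox6b2).

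Differences in isoform share (PR3 KO minus WT, percentage points) ranged, with 1 library left out, from -0.0447 to 0.0499 for Cox6a2 (0.0117 over all libraries) and from -1.81 to 0.29 for Atp5g2 (-1.07 over all). With 1 FPKM added to each gene Cox6a2 was at -0.0357 and Cox8b at -0.0535. The cause of these changes was not tested. Depth limits the genes near 1 FPKM, Cox4i2 and Cox6a2.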
